A study of Homo sapiens with 10 samples.

Results

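The comparison set FAM46C joined to the deaminase APOBEC1 through a 74 aa linker beside GFP joined to APOBEC1 through a 7 aa linker, both expressed in HUDEP-2, a human erythroid progenitor cell line made immortal. Both constructs were driven by a TRE promoter, which doxycycline turns on. Doxycycline was given for 48 h by the sample labels and for 24 h by the series text. Each construct had 1 library of poly(A) RNA among the 10 libraries of the series. Bait and linker length differed together in the pair, and the effects of the 2 cannot be told apart. The sources used here do not say whether the cells were 1 clone or a pool. The members were the sites with at least 10 reads in both libraries. They numbered 15052 of the 18071 sites in the APOBEC1 tables and lay in 4376 genes. Of the other sites, 2715 had under 10 reads in either library, 303 were absent from either table and 1 position, in HBG1 and its near copy HBG2, had 2 records and was left out.

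FAM46C, the product of the gene TENT5C, is a poly(A) polymerase outside the canonical family. It lengthens the tails of messenger RNAs, is known for its part at the endoplasmic reticulum in plasma cells, and is often mutated in multiple myeloma. APOBEC1 is the cytidine deaminase that edits the apolipoprotein B messenger RNA and prefers an A or U before the edited C in A- and U-rich RNA. Joined to an RNA-binding protein, it leaves C-to-U edits on the RNAs that come near the bait, while joined to GFP it gives the edits of the deaminase itself. Levels are given as the percent of reads, at a site or summed over a gene's sites, that carry the edited base.

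The sites below hold the most edited reads of their gene, over both libraries together, in the genes on which the results turn. Each is a 21-base stretch of the GENCODE 29 transcript on GRCh38, written 5′ to 3′ with the edited C in capitals. The first 9 belong to genes whose level stood above, and the last 6 to genes whose level stood below, what the shift shared by all reads would give. In 14 of the 15 stretches the base before the edited C is A, and UBB has T there.
TENT5C (chr1:117623059-117623079, + strand): tcaaagtgcaCgacgtccggc
BUD23 (chr7:73697936-73697956, + strand): gttcagctgaCaaagtagtat
UBB (chr17:16382590-16382610, + strand): gctgttaattCttcagtcatg
PRG2 (chr11:57387385-57387405, - strand): cctccctccaCctccctgcaa
GNAS (chr20:58910885-58910905, + strand): cgtaattgtaCaagcagttaa
HBB (chr11:5225531-5225551, - strand): ctaagtccaaCtactaaactg
ECH1 (chr19:38815474-38815494, - strand): aactttatgaCaatgagtttc
RPN2 (chr20:37241438-37241458, + strand): tgtagttataCttttgcttgt
NPM1 (chr5:171406636-171406656, + strand): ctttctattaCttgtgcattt
TOMM20 (chr1:235111783-235111803, - strand): aacatagttaCatagttaaac
NDUFA5 (chr7:123541502-123541522, - strand): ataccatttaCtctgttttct
ANP32E (chr1:150220472-150220492, - strand): ttttcattgaCtcccattgtg
HNRNPR (chr1:23310088-23310108, - strand): ggatagattaCataggagtat
LMBRD2 (chr5:36099658-36099678, - strand): ttttactgtaCttagttcaaa
CCNG1 (chr5:163444483-163444503, + strand): taagttcagaCtagattgaac
It was not tested whether the T read at the TENT5C site was an edit or encoded in the construct. That site lies in coding sequence and the other 14 lie in the 3' UTR of the last exon. Their distances from the annotated transcript end ran from 62 nt in ECH1 and 77 nt in HBB to 2457 nt in TOMM20 among the 3' UTR sites.

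Editing was lower with the 74 aa fusion than with GFP when the reads of all kept sites were put together. Over the 15052 sites, 1.07% of reads were edited with the fusion (95% Wilson interval 1.05 to 1.10) and 2.68% with GFP (2.64 to 2.72). The odds ratio of edited reads was 0.394 (0.384 to 0.405), called here the overall odds ratio. Without TENT5C it was 0.383. No edited read was found with the fusion at 76.6% of sites and with GFP at 52.6%, and 6160 sites had none in either library. The fusion lay above GFP at 2174 sites (14.4%) and below it at 6704 (44.5%). A level of 10% or more was reached at 290 sites with the fusion and at 1020 with GFP, and a level of 20% or more at 38 and 114. At the 14303 sites with at least 10 reads in all 5 APOBEC1 libraries, the 74 aa level was 1.05%, beside 2.62% for GFP and 3.91%, 2.86% and 2.73% for FAM46C with 7, 27 and 52 aa linkers.

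The tables held 722683 reads for the fusion and 676954 for GFP, and the kept sites had a median of 40 and 38 reads. The lower level of the fusion was therefore not matched by a lower depth. The odds ratio was 0.383 at sites with 10 to under 20 reads in the shallower library, 0.376 at 20 to under 50 and 0.350 at 50 to under 100. It was 0.486 at the 407 sites with 100 to under 200 reads and 0.614 at the 71 sites with 200 or more, where reads per site approached the highest values in the tables, 300 and 308. Just inside the minimum of 10 reads, 838 sites with 10 to 12 reads had levels of 2.12% and 5.13%, and just outside it 739 sites with 7 to 9 reads had 3.17% and 6.55%. Each listed site was edited in 2 or more reads of 1 or more of the 5 APOBEC1 libraries, so sites never edited are not represented. A site listed through edits in GFP alone could only be lower with the fusion, and 1 listed through the fusion alone only higher. With 1 library a side there is no spread between replicates. Intervals and tests therefore reflect counting error alone. PCR reads carrying no molecular identifier are not independent, so the intervals can be too narrow and the p-values too small even for counting error. Every test here sets 2 libraries against each other, not 2 conditions.

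TENT5C (ENSG00000183508), the gene of the bait, was read first to test the sample labels. Its coding site is at position 117623069 of chromosome 1, in exon 2 of 2. There 218 of 233 reads (93.6%) carried the edited base with the fusion and 0 of 45 with GFP, which allows up to 6.67%. The only other kept site of the gene, in its 3' UTR, had 1 edited read of 23 with the fusion and 2 of 19 with GFP. The 2 libraries thus stood far apart at the coding site and not at the 3' UTR site. With 7, 27 and 52 aa linkers the coding site was at 95.7%, 96.6% and 94.7%, near its 93.6% with 74 aa. Levels over the sites measured in all 5 APOBEC1 libraries ran from 3.91% with 7 aa to 1.05% with 74 aa. Reads of the coding site hold RNA of the construct as well, and it was not tested whether the T was made by editing or encoded in the construct.

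Which transcripts were edited more near FAM46C than near GFP was asked with a two-sided Fisher's exact test on the summed reads of each gene, called at a Benjamini-Hochberg adjusted p under 0.05 over all 4376 genes. TENT5C, BUD23, UBB, PRG2 and GNAS were called higher with the fusion, 0.114% of the genes tested, and 273 genes were called lower, 6.24%. At an unadjusted p under 0.05 these were 25 and 538 genes. Because the fusion library edited least, each gene was also tested against the overall odds ratio in place of no difference, with an exact test from Fisher's noncentral hypergeometric distribution. This called 26 genes above (0.594%) and 22 below (0.503%), and at an unadjusted p under 0.05 it gave 219 and 138. The genes below had 93.4% of their sites in 3' UTRs, where the odds ratio was 0.310. When 3' UTR sites alone were tested against their own odds ratio, 17 of the 20 genes above still measured remained called, and 8 of the 21 below did, namely TCEA1, TOMM20, NDUFA5, ANP32E, LMBRD2, CCNG1, MCCC2 and TMX1. The rest of the genes below had adjusted p from 0.052 for HNRNPR to 0.25 for OAT in that exact test. The higher share of calls moved from 1.80% against GFP to 54.2% against the overall odds ratio, a move largely set by the change of reference. Of the 26 genes above, 5 were called higher than GFP, 20 were not called against GFP and 1 was called lower. All 22 genes below were also called lower than GFP. A call below 0.394 is the stricter one in the same direction on the same reads, so this overlap was largely built in.

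BUD23 encodes a methyltransferase of 18S ribosomal RNA. Its 9 sites, all in the 3' UTR, had 71 edited reads of 1014 with the fusion (7.0%, 5.59 to 8.74) and 13 of 564 with GFP (2.30%, 1.35 to 3.90), an odds ratio of 3.19 (1.75 to 5.82, Fisher's exact test, adjusted p = 0.0012). The fusion lay above GFP at 7 of the 9 sites. At position 73697946 of chromosome 7, 266 nt from the transcript end, the base in the BUD23 stretch printed above was edited in 31 of 133 reads (23.3%) and 4 of 75 (5.33%). Without that site the gene's difference from GFP was 2.70 percentage points and was no longer called (Fisher's exact test, adjusted p = 0.11), while the call against the overall odds ratio remained (exact test, adjusted p = 1.8e-07).

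UBB encodes a polyubiquitin precursor. It had 25 edited reads of 863 with the fusion (2.90%, 1.97 to 4.24) and 5 of 821 with GFP (0.609%, 0.260 to 1.42), an odds ratio of 4.87 (1.85 to 12.8, Fisher's exact test, adjusted p = 0.0078). None of its 6 sites was lower with the fusion, and their median distance from the end was 84.5 nt. The site at chromosome 17, position 16382600, 140 nt from the end, had 14 of 212 reads edited (6.60%) and 2 of 213 (0.939%). Without it the difference was 1.20 points and was not called against GFP (adjusted p = 0.40 in Fisher's exact test) but remained above the overall odds ratio (exact test, adjusted p = 0.016).

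GNAS encodes the stimulatory G protein alpha subunit. It had 49 edited reads of 1156 with the fusion (4.24%, 3.22 to 5.56) and 22 of 1192 with GFP (1.85%, 1.22 to 2.78), an odds ratio of 2.35 (1.41 to 3.92, Fisher's exact test, adjusted p = 0.015). The fusion was higher at 6 of 8 sites and lower at 1. At chromosome 20, position 58910895, 297 nt from the end, the levels were 11.7% of 223 reads and 7.52% of 226. GNAS was the 1 gene still called higher than GFP when each gene lost its most edited site (Fisher's exact test, adjusted p = 0.0082).

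PRG2 encodes the major basic protein of eosinophil granules, a secreted protein. Its 2 sites had 13 edited reads of 136 with the fusion (9.56%, 5.67 to 15.7) and 1 of 144 with GFP (0.694%, 0.123 to 3.83; Fisher's exact test, adjusted p = 0.012). Of these reads, 12 of 68 (17.6%) and 1 of 73 (1.37%) came from chromosome 11, position 57387395, 601 nt from the end. The authors' deposited table places that site also in AP000781.2. Without it PRG2 was called in neither test (adjusted p = 1.0 in both exact tests), so its call rested on 1 site.

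**Figure D1:**
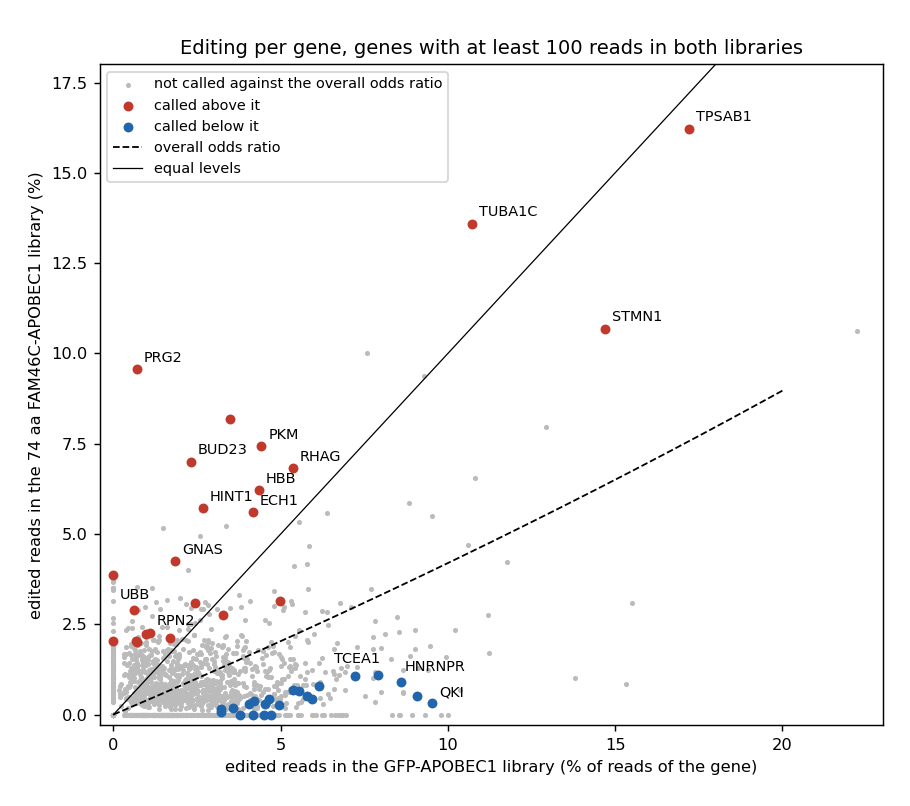
Edited reads per gene in the GFP-APOBEC1 library (x axis, percent) and in the 74 aa FAM46C-APOBEC1 library (y axis, percent) for genes with at least 100 reads in both. Each point is a gene, red points were called above and blue points below the overall odds ratio of 0.394 (dashed curve), and the solid line marks equal levels. BUD23 at 7.0% and 2.30%, GNAS, UBB and PRG2 sit above the line of equal levels, and most grey points lie under it.

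Among genes called above the overall odds ratio but not higher than GFP, HBB, the adult beta-globin gene, had 53 edited reads of 854 with the fusion (6.21%, 4.78 to 8.03) and 38 of 876 with GFP (4.34%, 3.18 to 5.90; exact test against the overall odds ratio, adjusted p = 1.6e-06). The intervals of the 2 libraries overlapped. Its 3 sites did not move together. At chromosome 11, position 5225538, 74 nt from the end, 20 of 297 reads (6.73%) and 10 of 305 (3.28%) were edited. At position 5225541, the capital base of the HBB stretch, the levels were 6.33% and 7.14%. These 2 bases are 3 nt apart, and the fusion was above GFP at the first and below it at the second.

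ECH1, an enoyl-CoA hydratase family member of fatty acid breakdown, had levels of 5.61% and 4.17% (exact test against the overall odds ratio, adjusted p = 3.9e-06). Its site 62 nt from the end, at chromosome 19, position 38815484, reached 26.4% of 121 reads with the fusion and 15.2% of 105 with GFP. That site held 56.1% of the fusion's edited reads in ECH1. Of the gene's 11 sites, the fusion was above GFP at 3 and below it at 4. RPN2, a subunit of the oligosaccharyltransferase that glycosylates proteins entering the endoplasmic reticulum, was at 2.24% of 1338 reads and 0.980% of 1123 (adjusted p = 4.2e-05, same exact test). NPM1, the nucleolar chaperone nucleophosmin, was at 2.25% of 1244 reads and 1.11% of 1175, with the fusion above GFP at 12 of its 20 sites and below at 3 (exact test, adjusted p = 0.00016). The 4 genes HBB, ECH1, RPN2 and NPM1 remained called above when each lost its most edited site.

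CST3, the secreted protease inhibitor cystatin C, was also above the overall odds ratio, at 2.01% and 0.713% (15 of 747 and 5 of 701 reads). The same call was made for the next 5 genes. MFGE8, a secreted milk fat globule protein, had 12 edited reads of 86 with the fusion and 0 of 43 with GFP, which allows up to 6.98%. ITM2B, an integral membrane protein, was at 3.09% and 2.44%. RHAG, the Rh-associated glycoprotein of the red cell membrane, was at 6.82% of 425 reads and 5.36% of 373. SYNGR1, a vesicle membrane protein, was at 2.04% and 0.666%, with 84.6% of the fusion's edited reads at 1 site. TMED10, a p24 cargo receptor between the endoplasmic reticulum and Golgi, was at 2.77% and 3.27%, below GFP but above the overall odds ratio (exact test, adjusted p = 0.026).

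The remaining genes above the overall odds ratio were less certain or rested on few sites. TPSAB1, a mast cell tryptase with near-identical paralogs, was at 16.2% and 17.2%, and 96.4% of the fusion's edited reads came from 1 site. TUBA1C, an alpha-tubulin gene with close paralogs, had 1 site at 13.6% and 10.7%, where the transcript base is not C. WASH3P, a pseudogene with several copies, was at 8.20% and 3.50%. STMN1, a microtubule-destabilising protein, was at 10.7% and 14.7%, with 89.8% of the fusion's edited reads at 1 site. PRKCB, a protein kinase C, was at 2.12% and 1.68%, and GAK, a kinase of clathrin uncoating, had 6 edited reads of 79 against 0 of 105.

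The other 5 genes fell outside the naming rule and were chosen after their values were seen. PKM, a pyruvate kinase, was at 7.42% and 4.41%, and HINT1, a nucleotide hydrolase, at 5.73% and 2.67%. RANBP3 had 6 edited reads of 295 and 0 of 364, and ABCF2 had 6 of 155 and 0 of 178 at sites that it shares with another gene. AC010894.3 lies across other genes, was at 3.13% and 4.98% with 71.2% of the fusion's edited reads at 1 site, and lay below the overall odds ratio without sites edited at 40% or more in both libraries. Of the 26 genes above, 9 of 25 still measured remained called when each gene lost its most edited site, namely BUD23, UBB, GNAS, HBB, ECH1, RPN2, NPM1, ITM2B and TMED10.

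The genes called lower than GFP were led by TCEA1, the transcription elongation factor TFIIS, with 28 edited reads of 2630 with the fusion (1.06%, 0.738 to 1.53) and 151 of 2087 with GFP (7.24%, 6.2 to 8.43). The odds ratio was 0.138 (0.0918 to 0.207, Fisher's exact test, adjusted p = 4.1e-26). The fusion was lower at 26 of its 27 sites and higher at none. Here and below, counts of lower sites include sites that GFP edits helped to list. TOMM20, which receives proteins for import at the mitochondrial surface, had 7 of 1362 reads (0.514%) and 84 of 1451 (5.79%), with an adjusted p of 3.8e-14 in Fisher's exact test. The TOMM20 base printed above is at position 235111793 of chromosome 1. The levels there were 7.23% of 83 reads and 34.0% of 94, and this site held 6 of the 7 edited reads of the fusion. NDUFA5, a complex I subunit, was at 0.441% and 4.66%, lower at 22 of 25 sites. ANP32E, a histone chaperone for H2A.Z, was at 0.372% and 4.20%, lower at 26 of 31 sites. These 4 genes were also below the overall odds ratio (exact test, adjusted p = 1.9e-05, 0.0014, 0.0019 and 0.0016) and remained so without their most edited site.

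HPRT1, an enzyme of purine salvage, was the exception among the 10 leading lower genes. It was at 1.90% of 1156 reads and 9.45% of 899, lower than GFP (Fisher's exact test, adjusted p = 8.5e-12), and was not called against the overall odds ratio (exact test, adjusted p = 0.11). HNRNPR, a splicing-related RNA-binding protein, was at 0.911% and 8.59%, and its printed base was edited in 3 of 118 reads and 17 of 100. The nuclear protein PCNP was at 0.659% and 5.56%, and HMGN5, a nucleosome-binding protein, at 0.675% and 5.37%. ACTR2, a subunit of the actin-nucleating Arp2/3 complex, was at 0.787% and 6.14%, and PRKAR2B, a regulatory subunit of protein kinase A, at 0.281% and 4.04%.

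No edited read was found with the fusion in 4 of the 22 genes below the overall odds ratio. LMBRD2, a multi-pass membrane protein, had 0 of 719 reads, which allows up to 0.417%, and 44 of 937 with GFP (4.70%), spread over 18 sites that were all lower. With 7, 27 and 52 aa linkers LMBRD2 was at 0.292%, 0.0% and 0.0%. Its sites were thus listed mainly through GFP edits, which largely fixed in advance that they were lower. CCNG1, cyclin G1, had 0 of 875 reads (up to 0.343%) and 37 of 975 (3.79%). MCCC2, a subunit of methylcrotonyl-CoA carboxylase in leucine breakdown, had 0 of 711 (up to 0.422%) and 28 of 673 (4.16%). NORAD, a long noncoding RNA that binds Pumilio proteins and was chosen after its values were seen, had 0 of 605 (up to 0.496%) and 25 of 554 (4.51%). TMX1, a thioredoxin-related protein of the endoplasmic reticulum membrane, had 1 edited read of 1184 and 32 of 993, and C11orf58 had 4 of 948 and 34 of 574.

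The last 6 genes below were likewise chosen after their values were seen. QKI, an RNA-binding protein, was at 0.309% and 9.54%. LAPTM5, a lysosomal membrane protein, was at 0.508% and 9.06%, and OAT, ornithine aminotransferase, at 1.10% and 7.91%. BCLAF1 was at 0.278% and 4.96%, AP3S1, an adaptor complex subunit, at 0.301% and 4.55%, and LYPLA1, a depalmitoylating enzyme, at 0.169% and 3.56%. Of the 22 genes below, 6 remained called without the most edited site of each gene, namely TCEA1, TOMM20, NDUFA5, ANP32E, CCNG1 and LYPLA1.

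The other FAM46C linkers share the GFP library with this comparison, so their levels are given side by side only. BUD23 stood at 22.1%, 17.7% and 18.2% with 7, 27 and 52 aa, UBB at 11.8%, 9.07% and 8.30%, and GNAS at 18.5%, 12.4% and 12.8%. In these 3 genes the 74 aa level lay between GFP and every shorter linker. TCEA1 was at 2.14%, 1.98% and 2.01% with 7, 27 and 52 aa, and LMBRD2 at 0.292%, 0.0% and 0.0%. HMGN5 was at 5.40% with 7 aa, near the 5.37% of GFP, and at 3.10% and 3.35% with 27 and 52 aa. PRG2 departed from the first order, with 4.76%, 13.6% and 8.62% beside 9.56% with 74 aa.

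**Figure D2:**
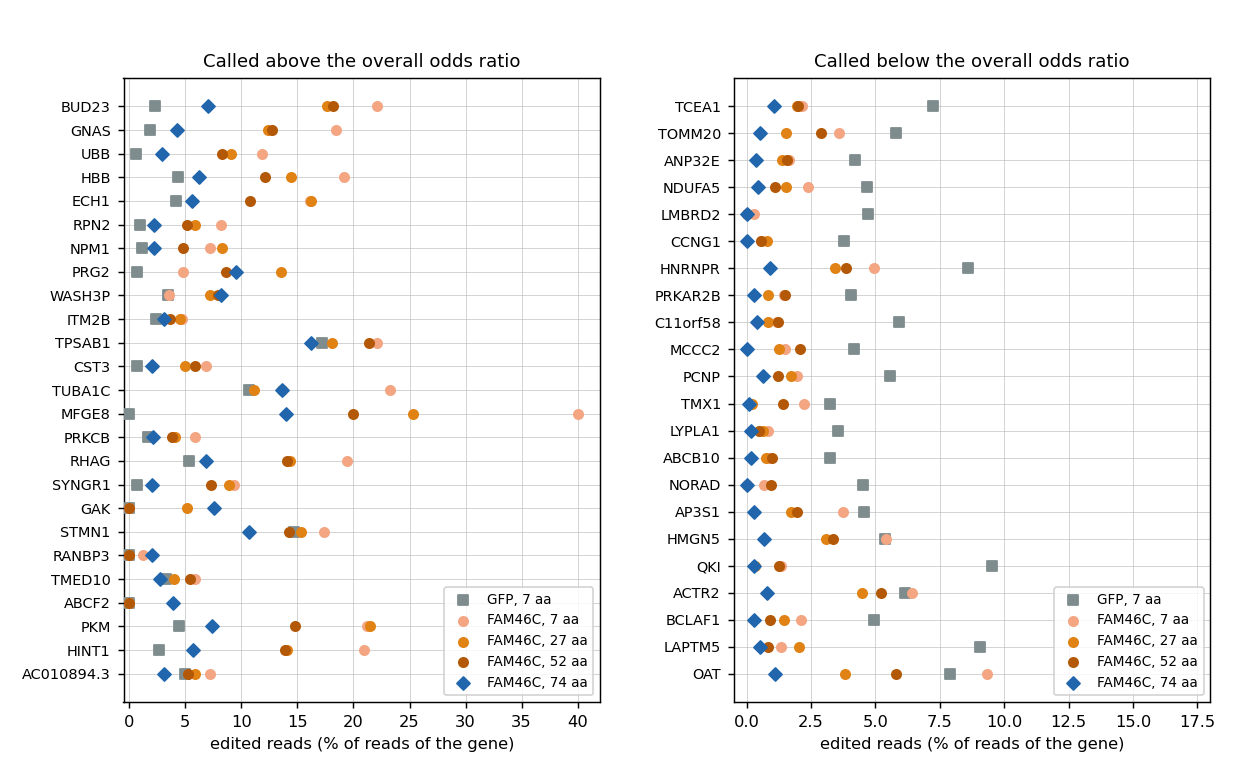
Edited reads (percent of reads of the gene) in each of the 5 APOBEC1 libraries for the genes called above (left, without TENT5C) and below (right) the overall odds ratio, ordered by adjusted p. Each point is 1 library: grey squares are GFP, orange circles FAM46C with 7, 27 and 52 aa linkers, blue diamonds FAM46C with 74 aa. The blue diamond of BUD23 lies at 7.0% between the grey square and the orange circles, and the right panel has its grey squares mostly at the right, as for QKI at 9.54%.

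The 2 groups of genes differed in where their sites lay, given as a description. The 26 genes above held 248 sites, with a median of 501 nt from the transcript end over their 3' UTR sites and 19.5% of those sites within 100 nt. The 22 genes below held 394 sites, with a median of 870 nt and 2.45% within 100 nt. Over all genes the median was 592 nt and 12.7% lay within 100 nt. An A preceded the edited C at 57.0% of exonic sites in the genes above, 79.2% in the genes below and 63.9% over all genes. Genes below had more sites, with a median of 18.5 per gene beside 7 in genes above and 2 over all, and so had more reads to test.

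The reduction differed by transcript region. In 3' UTRs, 10169 sites had 1.03% of reads edited with the fusion and 3.26% with GFP, an odds ratio of 0.310 (0.30 to 0.320). In coding sequence without TENT5C, 4213 sites had 1.05% and 1.34%, an odds ratio of 0.785 (0.738 to 0.835). The coding odds ratio was thus 2.53 times that of 3' UTRs (2.36 to 2.71). The fusion's own levels in the 2 regions were close, and it was the GFP level that differed. The coding levels were no higher than the 1.56% and 1.43% at 233 exonic sites whose transcript base is G, not a target of the deaminase on that strand. Of the 4213 coding sites, 3320 had at least 10 reads and no edited read in the 52 aa FAM46C library. In 5' UTRs, 255 sites had 1.25% and 1.42%, an odds ratio of 0.875 (0.678 to 1.13). Introns, with 148 sites, had 1.36% and 2.41% (0.558, 0.460 to 0.677), and exons of noncoding RNAs, with 196 sites, had 1.05% and 2.3% (0.455, 0.356 to 0.582). The intron value was 0.414 without sites edited at 40% or more in both libraries.

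Part of the gap between coding sequence and 3' UTRs went with the base before the C. At sites with an A before the C, coding sequence had 0.795% and 1.64%, an odds ratio of 0.481 (0.429 to 0.539), and 3' UTRs had 1.12% and 3.60%, an odds ratio of 0.303 (0.293 to 0.314). At sites edited at 5% or more in the 52 aa FAM46C library, a library outside the comparison, the odds ratios were 0.989 in coding sequence (374 sites, 0.798 to 1.22) and 0.511 in 3' UTRs (2156 sites, 0.487 to 0.536). Their ratio was then 1.93 (1.55 to 2.41).

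Within 3' UTRs, the odds ratio was lower at greater distance from the annotated transcript end when all genes were put together. It was 0.591 (0.500 to 0.698) under 50 nt, 0.608 from there to 100 nt, 0.397 up to 200 nt and 0.363 up to 400 nt. It was 0.295 from 400 to 800 nt, 0.250 up to 1600 nt, 0.212 (0.193 to 0.232) up to 3200 nt and 0.234 beyond. At the 1296 sites under 100 nt the levels were 1.31% and 2.15%, and at the 2690 sites 1600 nt or more away they were 0.783% and 3.46%. The odds ratio near the end was 2.73 times that far from it (2.43 to 3.07).

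The same gradient was not seen between sites of the same genes at a boundary of 400 nt. In the 461 genes with sites on both sides, the levels under 400 nt were 0.827% and 3.12%, an odds ratio of 0.259 (0.236 to 0.284), and at 400 nt or more 1.16% and 4.02%, an odds ratio of 0.279 (0.263 to 0.297). The ratio of the 2 was 0.926 (0.828 to 1.04), and with the gene as a stratum the Mantel-Haenszel odds ratios were 0.253 and 0.265. The 929 genes with no site at 400 nt or more had 1.29% and 2.38% at their 2601 sites, an odds ratio of 0.538 (0.507 to 0.571). In the 154 genes with sites both under 100 nt and at 400 nt or more, a boundary chosen after the data were seen, the odds ratios were 0.359 (0.280 to 0.459) and 0.301 (0.275 to 0.330), whose intervals overlap. At the boundary of 400 nt, the gradient over all genes thus went with which genes had sites far from the end. At 100 nt the value near the end stayed the higher within genes, also with the gene as a stratum (0.340 and 0.286). A gradient within genes was not settled there.

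**Figure D3:**
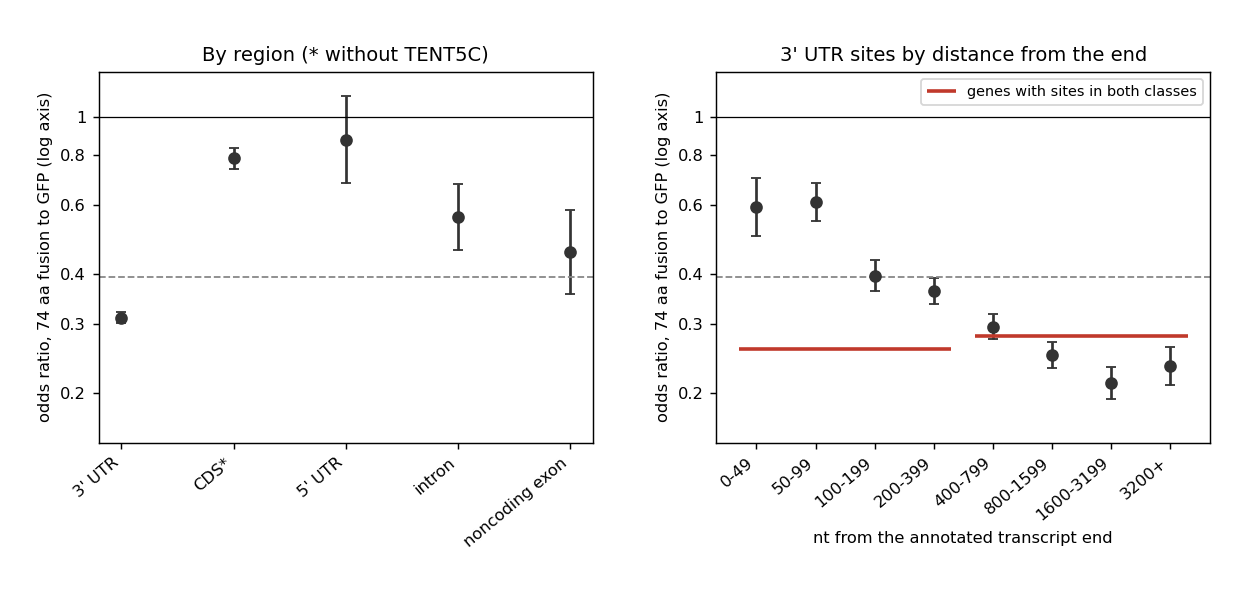
Odds ratio of edited reads, 74 aa fusion to GFP, on a log axis, by transcript region (left, coding sequence without TENT5C) and by distance of 3' UTR sites from the annotated transcript end (right). Points are odds ratios with 95% intervals from counting error, the solid line marks 1, and the dashed line marks the overall 0.394. Red bars are genes with sites both under 400 nt and at 400 nt or more, at 0.259 and 0.279.

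Sequence around the edited base went with the size of the reduction. An A before the C, at 9326 exonic sites, gave 1.12% and 3.32%, an odds ratio of 0.331 (0.320 to 0.342), and a T gave 0.399 (0.371 to 0.430). A G before the C gave 0.862 (0.782 to 0.949). At the 679 sites with a C before the edited C, the fusion was at 1.49% and GFP at 1.14%, an odds ratio of 1.31 (1.13 to 1.52). This class was mostly coding, with 574 sites at an odds ratio of 1.31 (1.12 to 1.54), and at its 56 sites in 3' UTRs the fusion was below GFP, at 0.871% and 1.27%, an odds ratio of 0.684 whose interval includes 1. Within 3' UTRs the values with A, T and G before the C were 0.303, 0.331 and 0.532. At 233 exonic sites whose transcript base is G, and so not a target of the deaminase on that strand, the levels were 1.56% and 1.43%, an odds ratio of 1.09 (0.875 to 1.35). The contexts that APOBEC1 prefers were therefore those with the lowest odds ratios. In A- and T-rich surroundings, with 14 or more of the 20 flanking bases A or T, the odds ratio was 0.294, and with 7 or fewer it was 0.853. These classes mix regions, since 5885 of the 6441 A- and T-rich sites were in 3' UTRs and 728 of the 1081 poor ones in coding sequence. Within 3' UTRs the same classes had 0.286 (0.275 to 0.298) and 0.509 (0.383 to 0.675), and within coding sequence 0.527 and 0.965.

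In 3' UTRs the level in the 52 aa library also went with the reduction. There the odds ratio was 0.144 (0.134 to 0.155) at the 4658 sites without an edited read in the 52 aa library, and 0.278 at levels above 0 and under 5%. It was 0.411 at 5 to 10%, 0.572 at 10 to 20% and 0.661 (0.592 to 0.738) at the 90 sites at 20% or more, where the fusion was at 15.8% and GFP at 22.1%. Sites in 3' UTRs edited well with the 52 aa FAM46C fusion thus had less of a reduction with 74 aa. The order at the low end did not hold elsewhere. Over all sites the first 2 classes had 0.319 and 0.291, and in coding sequence 0.781 (0.730 to 0.835) and 0.553 (0.404 to 0.757), before 0.967 (0.575 to 1.63) at 5 to 10%. Sites in the tables without an edit with 52 aa had to be edited in another library, GFP among them, so the lowest class holds sites that GFP helped to place in the tables.

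The gene lists, 15 in all with 612 entries of which 377 were tested, are described by their counts beside all genes, where the median difference from GFP was -0.502 percentage points, 832 genes were above GFP, 2342 below and 1202 equal. They were chosen with earlier results of these data known. Each list had more reads per gene than all genes, with medians from 160.5 to 485 over both libraries beside 145. A larger share called lower in a list can therefore come with its reads, which was not tested. Splicing factors had the most calls. Of 38 listed, 34 were tested, 32 were below GFP and none above, and 14 (41.2%, beside 6.24% of all genes) were called lower, with a median difference of -3.05 points. Their summed levels were 0.735% and 4.49%. HNRNPH3 was at 0.307% and 4.21% and HNRNPC, which binds U-rich RNA, at 0.894% and 6.17%. SRSF1, an SR protein, was at 1.70% and 11.2% at 1 site, and HNRNPA0 had 0 of 201 reads (up to 1.49%) and 6.80%. HNRNPR alone of the list was called below the overall odds ratio, and lost that call with 3' UTR sites only (exact test, adjusted p = 0.052) and without its most edited site (adjusted p = 0.17). Splicing factors also had more reads, with a median of 466.5 per gene over both libraries beside 145 for all genes, and a higher median GFP level, 3.78% beside 1.37%.

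In heme synthesis and iron handling, 18 of 28 genes were tested, and CPOX, ABCB10 and NCOA4 were called lower (16.7%, beside 6.24% of all genes), with a median difference of -1.92 points over the list. CPOX, coproporphyrinogen oxidase, had 0 of 255 reads (up to 1.2%) and 4.39% with GFP (Fisher's exact test, adjusted p = 0.0076). ABCB10, a mitochondrial inner membrane transporter needed for heme synthesis, had 2 edited reads of 1245 and 41 of 1271 (3.23%) and was also below the overall odds ratio (exact test, adjusted p = 0.026). That call was lost with 3' UTR sites only (adjusted p = 0.081 in the exact test) and without its most edited site (0.079). NCOA4, the ferritin receptor of autophagy, had 0 of 658 (up to 0.456%) and 2.22%. The list as a whole had 8 edited reads of 3770 with the fusion and 97 of 3976 with GFP, an odds ratio of 0.0850 (0.0413 to 0.175), the lowest of the 14 lists with an odds ratio.

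The globins went the other way. Over 5 genes tested, 54 of 1037 reads (5.21%) and 43 of 1449 (2.97%) were edited, an odds ratio of 1.80 (1.19 to 2.70). HBB held 53 of the 54 edited reads of the fusion, so the sum is that of 1 gene. HBG1 and HBG2, the near-identical fetal globins between which reads could be split, had 0 of 74 reads and 1 of 47 with the fusion and 0 of 239 and 4 of 185 with GFP. Among red cell membrane and skeleton genes, with 21 of 32 tested, RHAG was above the overall odds ratio and STOM, the membrane protein stomatin, was called lower (4.76% of the list) at 0.260% and 3.57%. In erythroid transcription and signalling, 7 genes were tested and none was called. The 7 together had 0 of 688 reads with the fusion (up to 0.436%) and 14 of 716 with GFP (1.96%), of which 6 were in MYB and 6 in STAT5B.

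Genes of the endoplasmic reticulum and secretory path numbered 47 tested of 57. None was called higher than GFP and 5 were called lower (10.6%, beside 6.24% of all genes). This list had the most reads per gene, a median of 485 over both libraries beside 145 for all genes. RPN2, MFGE8 and TMED10 were above the overall odds ratio, as were 0.594% of all genes. The lower genes were SPCS2, a signal peptidase subunit, at 1.29% and 5.43%, SSR1, a translocon-associated protein, at 0.486% and 3.06%, TRAM1 at 0.785% and 3.91%, SEC62 with 0 of 259 reads and 3.85%, and KDELR2, a receptor that returns proteins to the endoplasmic reticulum, with 0 of 337 and 2.86%. The summed odds ratio was 0.530 (0.450 to 0.624). Lysosome and V-ATPase genes, with 34 of 43 tested, had a median difference of -0.00829 points and an odds ratio of 0.614 (0.513 to 0.735). ASAH1, ATP6V1C1 and ATP6AP2 were called lower there (8.82%) and CST3 was above the overall odds ratio. CTSC, the protease cathepsin C, was at 1.75% and 1.76%, and was called in neither test.

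Of 43 respiratory chain genes tested, NDUFB5, UQCRB and SDHD were called lower, a share of 6.98% that is near the 6.24% of all genes. Of 25 genes of mitochondrial import and outer membrane, TOMM20, BNIP3L and VDAC1 were called lower (12%). VDAC1, the outer membrane pore, was at 1.23% and 8.66%, and BNIP3L, a mitophagy receptor of maturing red cells, at 0.978% and 2.79%. FUNDC2 was on the other side at 1.39% and 0.396% and was called in neither test (adjusted p = 0.58 in Fisher's exact test against GFP and 0.067 in the exact test against the overall odds ratio). In cell cycle and replication, 4 of 33 tested were called lower (12.1%, beside 6.24% of all genes), namely CCNG1, CCNI at 0.614% and 3.68%, CDK1 with 0 of 397 reads and 3.52%, and RFC3 with 0 of 186 and 4.89%. TYMS, thymidylate synthase, was at 1.59% and 0.660% and was not called.

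In the list nearest to the known activity of the bait, poly(A) tail and mRNA decay, 20 of 41 genes were tested, with a median difference of -0.247 points. PAPOLA, the canonical poly(A) polymerase, was called lower at 1.24% and 3.33% (Fisher's exact test, adjusted p = 0.0067), as was NUDT21, a cleavage factor, at 0.385% and 3.51%. CNOT7, a deadenylase, was at 0.280% and 1.03% and was not called. These calls were 10% of the list, beside 6.24% of all genes. Translation factors had 2 of 21 called lower (9.52%), EIF2S3 at 0.304% and 2.94% and EIF1AX at 0.614% and 5.28%. EIF3C was at 0.622% and 0.370% and was not called. Among 28 ribosomal protein genes RPS23 alone (3.57%, under the share of all genes) was called lower, at 0.671% and 10.4%, while RPS4X was at 2.15% and 3.33% and was not called. Among 30 proteasome and ubiquitin genes UBB was higher and PSMB2 (3.33%) lower, at 0.593% and 3.61%. Of 11 autophagy genes GABARAPL2 (9.09%) was called lower, at 0.856% and 3.60%.

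Per site, the only site called higher than GFP was the TENT5C coding site, whose T was not shown to be an edit. It made 0.00664% of the sites tested, and 13 sites were called lower (0.0864%, Fisher's exact test over 15052 sites). At an unadjusted p under 0.05 these were 13 and 323. Against the overall odds ratio, 8 sites were above (0.0531%) and none below, with 246 and 21 at an unadjusted p under 0.05. The fusion had no edited read at 76.6% of sites, which left little room for a call below. Even the ACTR2 site with 0 of 160 reads, beside 17 of 141 with GFP, was not called below. The lack of sites below therefore does not show that sites departed only upward. The 8 sites were in TENT5C, BUD23, UBB, PRG2, ECH1, HBB, GNAS and WASH3P. The lower sites lay in 3' UTRs of HNRNPR, LAPTM5, TOMM20, OAT, HNRNPC, ACTR2, DEK, RBM3, HPRT1 (2 sites), CA1, CA2 and YWHAZ, of which DEK, RBM3, CA1, CA2 and YWHAZ were named after their values were seen. CA1, a carbonic anhydrase of red cells, kept the most editing of these, at 22.1% of 280 reads with the fusion and 43.8% of 272 with GFP. In HPRT1, 2 sites 31 nt apart had 16.2% and 47.3% at position 134500217 of chromosome X and 2.63% and 21.5% at position 134500248. In ACTR2, 0 of 160 reads were edited with the fusion (up to 1.88%) and 12.1% with GFP, at a site 2312 nt from the end.

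The authors' deposited table for this fusion held 30 sites and 25 genes, with 3 sites given no gene. For 29 of the sites its p-values matched, to a tolerance of 1e-09, a Fisher's exact test that is one-sided toward the fusion, and the last site is the position in HBG1 and HBG2. Of the 30 sites, 24 had at least 10 reads in both libraries, none of these was called higher after adjustment over all sites, and 6 were above the overall odds ratio. Of 22 listed genes tested here, 4 were called higher than GFP (BUD23, UBB, PRG2 and GNAS), beside 0.114% of all genes. Those above the overall odds ratio numbered 11. They were 50% of the listed genes tested, beside 0.594% of all genes, and 42.3% of the genes above. The listing p-values came from the same reads of the same 2 libraries, so this overlap was largely built in. CRYZ, which the authors' deposited table lists for a site with 7 and 6 reads, was called lower over its 19 sites here, at 1.20% and 6.55% (Fisher's exact test, adjusted p = 3.3e-05). FAM129A and SLC6A6 were listed for sites with 4 edited reads of 10 and 0 of 10. ATP5F1E, a subunit of ATP synthase, had 8 edited reads of 121 and 0 of 122 at its listed site, and was at 1.81% and 1.23% over 4 sites.

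The same bait and linker length with the other deaminase, the catalytic domain of ADAR (ADARcd, A-to-G edits), shares no library with this comparison. At 4573 sites with at least 10 reads in both, the 74 aa FAM46C-ADARcd library was at 2.98% and GFP-ADARcd at 1.94%. The odds ratio was 1.55 (1.49 to 1.61), so the fusion was above GFP at these sites. Over all sites listed for each library, without a read minimum, the fusion was at 4.205% and GFP-ADARcd at 4.998%, the opposite direction. These 2 lists held 15541 and 16557 sites and were not the same sites. The fusion library held 160157 reads, a median of 2 per site, and GFP-ADARcd 479108, a median of 6. Why the direction changed was not tested. Of the 26 genes above with APOBEC1, 11 had ADARcd sites, and 9 of them were above GFP-ADARcd and 1 below. Without TENT5C, the gene of the bait, whose reads hold construct RNA, these were 8 above and 1 below of 10, beside 35.9% and 27.9% of 2720 genes. Of those 2720 genes, 976 were above, 759 below and 985 equal, and the equal genes lower both shares. The genes set side by side were not matched for reads. HINT1 was at 11% (7.51 to 15.9) with FAM46C-ADARcd and 0.347% with GFP-ADARcd, PKM at 17.0% and 7.60%, and CST3 at 8.87% and 0.418%. Of the 22 genes below, 6 had ADARcd sites, with 4 above and 2 below. TOMM20 was below in both, at 15.9% (10.5 to 23.2) and 35.3% (29.3 to 41.9) with ADARcd. With so few genes the counts are given as a description.

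Of 15 erythroid marker genes, 7 had sites in the tables, with 1873 reads for the fusion and 2543 for GFP in all. HBA1, HBA2, SLC4A1, TFRC, GATA1, KLF1, EPOR and BCL11A had none. ALAS2, the erythroid enzyme of heme synthesis, had 93 and 150 reads, HBG1 83 and 304, while HBB had 854 and 876 and RHAG 425 and 376. Reads at ALAS2 and HBG1 were thus fewer in the fusion library, and their part in the erythroid results was not tested. None of 4 lymphoid, 4 myeloid and 3 stromal markers had a site. The tables hold edited sites only, so a gene without a site is not thereby unexpressed, and in bulk RNA fewer cells of a type and less RNA per cell cannot be told apart.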

How the data were processed

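Per the labels' protocols, RNA was taken up in Trizol and libraries were made from poly(A) RNA. Tools named in the submitters' processing notes are HISAT2 2.2.1, SAMtools 1.18 and Picard 2.27.1, on GRCh38, without a role or order. The sources used here do not say how sites were picked. Raw counts of reference and edited reads per site were deposited by the authors, 1 table a library. For this fusion the authors also deposited a p-value per site with gene names. That table has 6 further columns whose names match no one library, and these were left unused.

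Sites with at least 10 reads in both libraries were assigned a gene and region from GENCODE 29 basic transcripts, and each site was given to 1 gene. Of the kept sites, 2.11% lay in more than 1 gene, and the labels do not state strand, so genes on opposite strands or with shared sequence cannot be told apart. Reads were summed per gene. Fisher's exact test and the exact test against the overall odds ratio used Benjamini-Hochberg adjustment (Python 3.11.15, SciPy 1.17.1, pandas 2.3.3) and were tested on simulated data. Shares have 95% Wilson intervals, odds ratios have log-scale intervals, and a share of 0 is given the limit that 3 counts allow. The 1 library per construct allows no replicate error.

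Named genes were TENT5C, the 10 genes with the smallest adjusted p called higher and the 10 called lower, the 20 called above and the 12 called below the overall odds ratio, in each list the 3 members with the most reads and any called member, and the genes of the authors' table. The members and lists were chosen with earlier results of these data known. Alternatives were other read minimums, sites of other kinds left out, the most edited site of each gene left out, 3' UTR sites only, the Mantel-Haenszel odds ratio and a one-sided test.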

Additional observations from a re-analysis of the deposited data

Results flagged for a closer look

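The direction differed between the deaminases at sites with at least 10 reads in both libraries. With the 74 aa linker the odds ratio of FAM46C to GFP was 0.394 with APOBEC1 and 1.55 (1.49 to 1.61) with ADARcd. Each had 1 library a side, and the difference was not tested. The ADARcd direction did not hold over all sites listed for each library, where FAM46C was at 4.205% and GFP at 4.998%. These 2 values are over unlike sets of 15541 and 16557 sites, without a read minimum. The ADARcd libraries had medians of 2 and 6 reads per site, and 4573 sites were kept. With APOBEC1 the levels over all listed sites were 1.24% and 2.91%.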

How the results depend on the processing

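No paired analysis was possible because each construct had 1 library. With 50 reads per site, 146 genes and 22 sites were lower than GFP, 0 sites were higher and the overall odds ratio was 0.412. Over sites, the Mantel-Haenszel overall odds ratio was 0.369. Without the most edited site of each gene, 1 gene was higher than GFP, 16 were above and 7 below the overall odds ratio. With 3' UTR sites only, 8 were below it. TENT5C was 6.18 points lower than GFP (-6.18) in both of these settings, since its 3' UTR site alone was left. By a one-sided unadjusted test, 25 sites were higher and 372 lower. AC010894.3 was at -1.90 points without sites edited at 40% or more in both libraries, below the overall odds ratio, and the intron odds ratio was then 0.414. The other alternatives were chosen after seeing the data, except the first pair of distance values. Without TENT5C the overall odds ratio was 0.383 and that of coding sequence 0.785. With an A before the C it was 0.481 in coding sequence, 0.664 in 5' UTRs and 0.254 in noncoding exons. At 5% or more in the 52 aa library it was 0.511 in 3' UTRs and 0.989 in coding sequence. For 3' UTR sites under 400 nt and at 400 nt or more, 0.427 and 0.252 became 0.253 and 0.265 within the same genes, and 0.340 and 0.286 within genes with sites under 100 nt and at 400 nt or more. Apart from the construction of each setting, the cause was not tested. At 5 and 20 reads per site and at exonic C sites, the counts of calls stayed within 1.5 times. A site at the median of 40 reads without an edit allows a level of several percent, so single sites rarely reached a call.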
